A study of Mus musculus with 20 samples.

Results

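The smooth muscle contractile genes described here were listed by symbol for their known roles and are 10 of 46329 counted gene rows: the filament proteins Acta2, Actg2, Myh11 and Tpm2, the filament-bound proteins Smtn, Cnn1 and Lmod1, the intermediate filament protein Des, the LIM-domain protein Csrp1 and the muscarinic receptor Chrm2. All 10 had a row in each of the 20 files. Smooth muscle of the gut wall contracts when myosin pulls on actin filaments that are anchored through intermediate filaments and dense bodies. Calponin and tropomyosin lie along those filaments, and acetylcholine from enteric nerves starts contraction through muscarinic receptors. In the colon this tissue forms a thin layer under the mucosa and thick outer layers, and single contractile cells also lie in vessel walls and beneath the crypts.

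The 20 RNA-seq libraries came from C57BL/6J mice 100 days old, all ApcMin/+, which carries a mutation of Apc that gives rise to intestinal tumors. The 4 groups hold 5 libraries each: colorectal tumors and adjacent non-tumor tissue of Erbb2-deficient mice, then tumors and adjacent tissue of littermate controls. Both genotypes carried the floxed Erbb2 allele on both chromosomes, and the Erbb2-deficient mice also carried Tg(Vil1-cre), whose villin promoter is active in gut epithelium and not in muscle. The controls had no cre, so that the genotypes differ by the transgene as well as by Erbb2, and the labels call them WT. In bulk tissue such as this, fewer muscle cells and less RNA per muscle cell cannot be told apart.

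Every value here is the count of a named row, and the strand of the reads behind it limits what that row measures. Gene rows held 1071737 to 1944309 counts per library, which is 2.51% to 3.45% of the reads in a file. The Erbb2 row held 1 to 11 counts in Erbb2-deficient tumors and 5 to 22 in adjacent tissue, and 1 to 10 in control tumors and 3 to 12 in adjacent tissue, so these counts do not check the genotype labels. ND6, the mitochondrial protein gene that lies on its own on its strand, had 22599 to 199495 counts per library, against 884 to 5698 for the other mitochondrial protein rows together. Reads of a stranded kit counted on the opposite strand would give such values, and each member row would then hold only a small or antisense part of its gene's RNA. GENCODE M21, an annotation of another build (GRCm38) than the counts (mm39), was used for neighbours only. In it, Myh11, Cnn1, Actg2 and Csrp1 had no other gene within 1000 bases. Exons of Smtn overlapped Gm11946 on the opposite strand over 714 bases, exons of Des overlapped Gm15179 over 220 bases, and those of Chrm2 overlapped 9330158H04Rik over 142 bases. Tpm2 had Car9 nearby on the opposite strand, Acta2 had Stambpl1 nearby, and an snRNA gene lay within the span of Lmod1. A symbol below therefore names a row, and within it the reads of the gene and of an opposite transcript cannot be told apart.

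Promoter sequence is shown for 3 members, because transcription of many contractile genes is known to run through the serum response factor, which binds the CArG box. This box is a pair of C, a core of 6 bases that are each A or T, and a pair of G, and reads the same way on both strands. RefSeq promoter windows (GRCm38.p6, 250 bases before to 50 after the start) were at hand for 8 members, in 9 windows. Myh11 and Actg2 had none. Acta2 is shown because it was the single member with a match when 1 core base was allowed to differ, and Smtn and Chrm2 because their rows are among those with the largest differences. Capitals mark CArG boxes with 1 differing core base, and the windows are chr19:34255324-34255623 (minus strand) for Acta2, chr11:3539243-3539542 (minus strand) for Smtn and chr6:36387834-36388133 (plus strand) for Chrm2.
Acta2: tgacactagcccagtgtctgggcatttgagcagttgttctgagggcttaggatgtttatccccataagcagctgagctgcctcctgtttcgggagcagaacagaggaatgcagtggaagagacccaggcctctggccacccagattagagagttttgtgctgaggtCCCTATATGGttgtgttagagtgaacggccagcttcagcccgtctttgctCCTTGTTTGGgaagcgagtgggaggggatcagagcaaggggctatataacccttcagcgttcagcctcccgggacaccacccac
Smtn: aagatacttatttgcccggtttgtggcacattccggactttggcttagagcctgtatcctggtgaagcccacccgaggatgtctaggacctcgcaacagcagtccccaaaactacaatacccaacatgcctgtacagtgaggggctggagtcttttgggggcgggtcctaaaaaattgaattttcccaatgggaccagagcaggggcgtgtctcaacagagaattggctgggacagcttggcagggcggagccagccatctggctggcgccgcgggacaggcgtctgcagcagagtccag
Chrm2: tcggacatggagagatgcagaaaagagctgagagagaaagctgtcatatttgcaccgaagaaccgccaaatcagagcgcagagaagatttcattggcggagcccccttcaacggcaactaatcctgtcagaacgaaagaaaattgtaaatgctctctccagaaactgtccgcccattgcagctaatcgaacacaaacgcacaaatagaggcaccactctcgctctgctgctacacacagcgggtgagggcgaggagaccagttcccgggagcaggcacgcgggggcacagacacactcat
The boxes of Acta2 begin 84 and 34 bases before its start. No member window held a box with a full core, which 1.63% of 32851 windows in the table did, and 9.98% held a box with at most 1 differing core base. Absence from these 300 bases says nothing of sites elsewhere.

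The 2 smooth muscle actins are close paralogs, so their coding starts are shown to see how far reads can tell them apart. Aligned from the stop codon backwards, the longest reading frames in GENCODE M21 (GRCm38) were identical at 948 of 1131 bases (83.8%), with no identical run over 29 bases. Coding bases 4 to 93 of Acta2 (chromosome 19) and 1 to 90 of Actg2 (chromosome 6) were set side by side without a gap. They differ at 20 positions, which are in capitals. The frames hold 1134 and 1131 bases, so the opening run of capitals comes from the offset between them. With a gap placed further in, these opening bases would be the same in both genes.
Acta2: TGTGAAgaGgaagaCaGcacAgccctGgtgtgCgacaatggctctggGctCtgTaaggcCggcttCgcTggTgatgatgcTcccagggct
Actg2: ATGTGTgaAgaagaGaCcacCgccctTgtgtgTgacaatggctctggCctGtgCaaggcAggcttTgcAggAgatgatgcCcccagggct
Reads with several alignments are kept in a summary row of each file, and their share by gene was not examined.

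Tumors were compared with adjacent tissue within each genotype. Every one of the 10 rows fell in tumors of Erbb2-deficient mice and of controls (edgeR quasi-likelihood test, Benjamini-Hochberg adjusted p under 0.05), and in each row every tumor library lay below every adjacent library of its genotype. Over all 7119 rows tested, 14.5% were called lower and 13.0% higher in Erbb2-deficient tumors, and 10.9% lower and 10.7% higher in control tumors. Libraries did not overlap, with tumors lower, for 13.6% of rows in Erbb2-deficient mice and 6.66% in controls. Each member passed the count filter through its adjacent libraries: among the tumors alone 0 of 10 would have passed, so a row that passed had to be higher in adjacent tissue, and the count of 10 is a description. The median log2 fold change of the 10 rows was -4.47 in Erbb2-deficient mice (all rows tested, -0.06) and -5.06 in controls (all rows tested, 0.07).

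**Figure D1:**
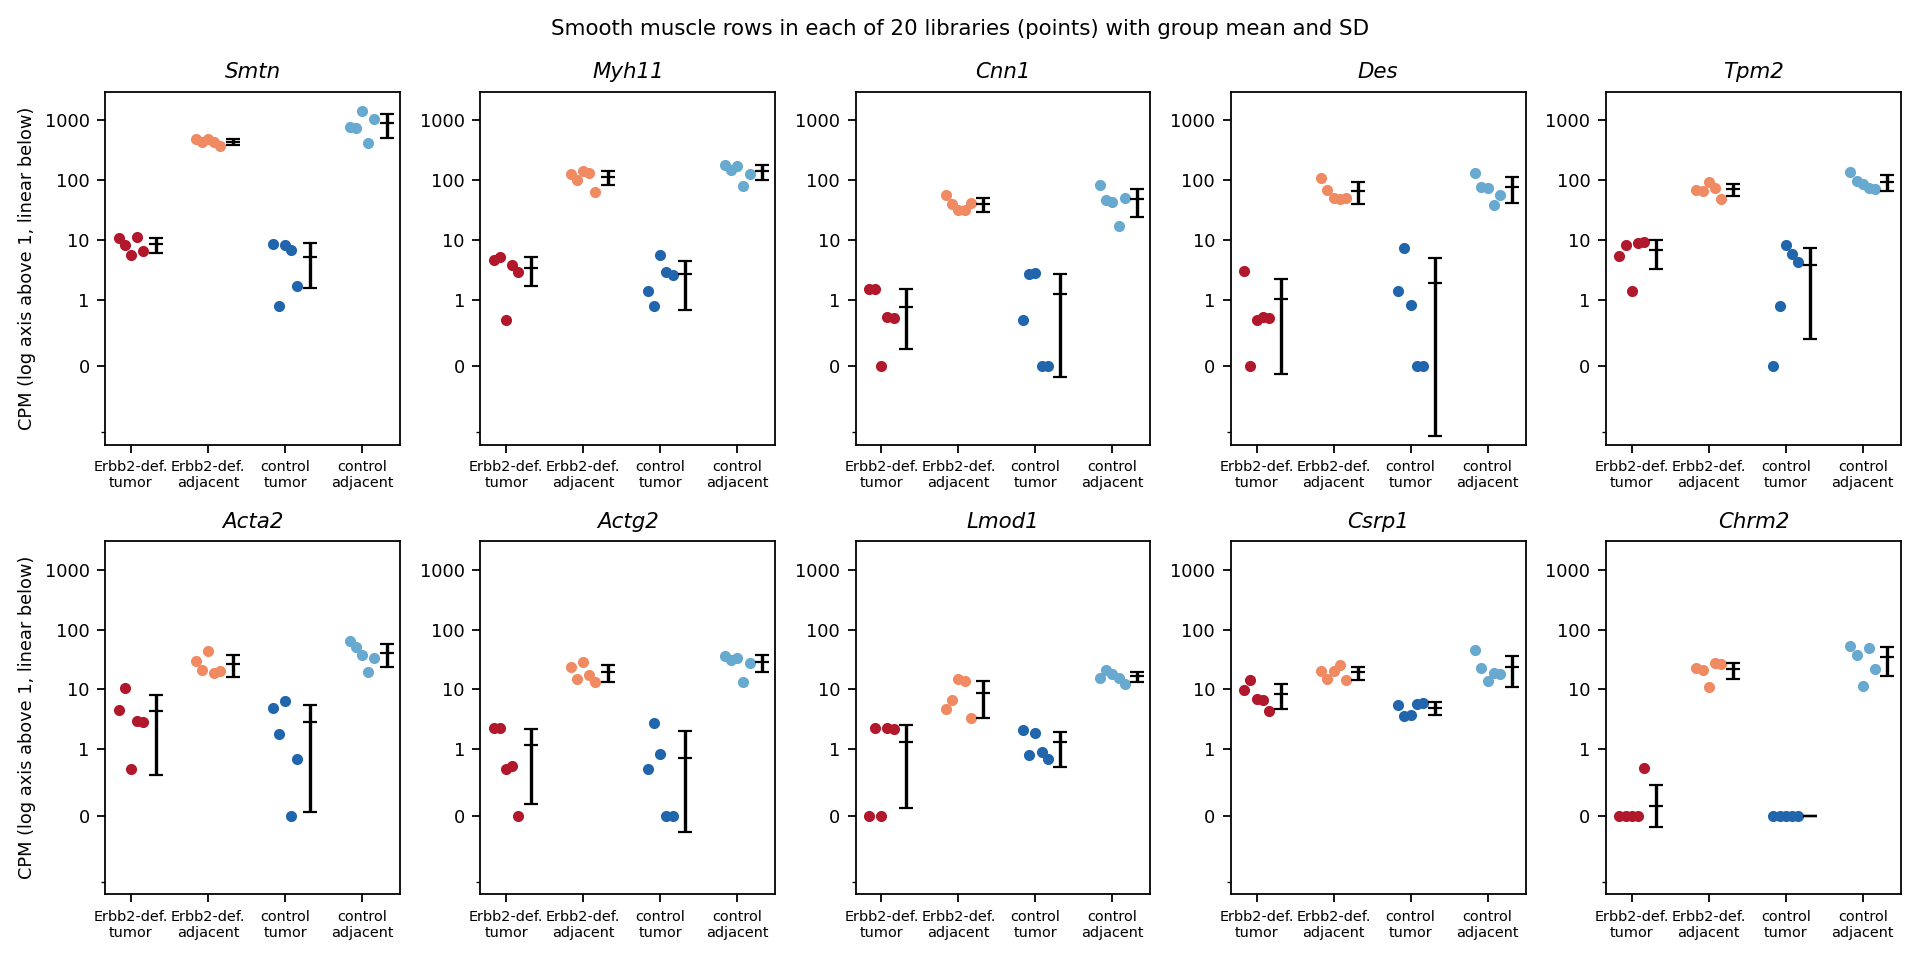
Normalized CPM (vertical axis, logarithmic above 1 and linear below) of each row in every library, as points, with the group mean and SD beside them. In each of the 10 rows the tumor points of a genotype lie below its adjacent points, and Chrm2 is at 0 in 9 of 10 tumors.

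Among the filament-bound proteins, Smtn (smoothelin, found in contractile smooth muscle) had the highest counts. Its level in Erbb2-deficient tumors was 10.6, 8.21, 5.59, 11.2 and 6.48 CPM (counts scaled to a common library size with TMM factors), against 489, 426, 477, 433.5 and 367 CPM in the adjacent tissue of these mice. In controls it was 8.38, 0.908, 8.28, 6.66 and 1.69 CPM in tumors and 784, 756, 1427, 419 and 1032 CPM in adjacent tissue. Control tumors 2 and 5 were the lowest tumors, and adjacent libraries of controls were spread far more widely than those of Erbb2-deficient mice. Smtn had a log2 change of -5.69 ± 0.42 SE in Erbb2-deficient mice (edgeR adjusted p = 6.02e-08) and -7.37 ± 0.46 SE in controls (adjusted p = 2.29e-09).

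Cnn1 (calponin, an inhibitor of the actin-activated ATPase of myosin) ranged from 0 to 1.51 CPM in Erbb2-deficient tumors, against 31.0 to 57.0 CPM in adjacent tissue. In controls it ranged from 0 to 2.76 CPM in tumors and from 17.0 to 83.9 CPM in adjacent tissue. It had 0 counts in Erbb2-deficient tumor 3 and in control tumors 4 and 5. Its log2 fold change was -5.36 ± 0.60 SE in Erbb2-deficient mice and -5.21 ± 0.59 SE in controls (edgeR adjusted p = 6.83e-06 and 6.32e-06), and -7.04 in controls without control tumors 2 and 3. Lmod1 (leiomodin, which starts actin filaments) had the fewest counts of the 10, 8.55 per library on average. It averaged 1.33 ± 1.21 CPM in Erbb2-deficient tumors and 8.66 ± 5.35 CPM in adjacent tissue, and 1.33 ± 0.591 CPM in control tumors and 16.6 ± 3.25 CPM in adjacent tissue (SD, n = 5 each). On the log2 scale Lmod1 differed by -2.61 ± 0.58 SE in Erbb2-deficient mice and -3.52 ± 0.57 SE in controls (edgeR adjusted p = 0.00230 and 0.000303).

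The motor and filament proteins gave the same direction with smaller differences for the actins and Tpm2 than for Myh11. Myh11, the smooth muscle myosin heavy chain, had 4.53, 5.22, 0.698, 3.72 and 2.88 CPM in Erbb2-deficient tumors, against 124, 99.7, 139.7, 132 and 64.2 CPM in adjacent tissue. In controls it had 1.40, 0.908, 5.52, 2.86 and 2.54 CPM in tumors and 179, 144.5, 174, 80.7 and 125 CPM in adjacent tissue. The tumor values rest on 1 to 7 counts per library, with Erbb2-deficient tumor 3 and control tumor 2 at 1 count each. The log2 fold change of Myh11 was -5.0 ± 0.42 SE in Erbb2-deficient mice and -5.70 ± 0.44 SE in controls (edgeR adjusted p = 2.21e-07 and 4.51e-08).

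Acta2 (smooth muscle alpha-actin, also made by myofibroblasts and pericytes) had 4.53, 10.4, 0.698, 2.98 and 2.88 CPM in Erbb2-deficient tumors, against 30.3, 20.8, 43.7, 18.9 and 20.5 CPM in adjacent tissue. In controls it had 4.89, 1.82, 6.44, 0 and 0.847 CPM in tumors and 64.2, 50.4, 37.5, 19.7 and 32.9 CPM in adjacent tissue. Erbb2-deficient tumor 2 was the highest tumor, and its level was nearest to the adjacent range. The log2 fold change of Acta2 was -2.62 ± 0.56 SE in Erbb2-deficient mice (edgeR adjusted p = 0.00182), and -3.21 without Erbb2-deficient tumor 2. It was -3.79 ± 0.60 SE in controls (adjusted p = 0.000248).

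Actg2, the gamma-actin of gut smooth muscle, averaged 1.19 ± 1.01 CPM in Erbb2-deficient tumors and 19.5 ± 6.34 CPM in adjacent tissue. It averaged 0.868 ± 1.12 CPM in control tumors and 28.5 ± 9.02 CPM in adjacent tissue (SD, n = 5 each). No tumor had more than 3 counts of Actg2. Its log2 fold change was -3.94 ± 0.56 SE in Erbb2-deficient mice and -4.90 ± 0.59 SE in controls (edgeR adjusted p = 5.90e-05 and 1.69e-05), and -5.8 in controls without control tumor 2 (-6.29 without control tumors 2 and 3). Tpm2 (beta-tropomyosin, which lies along the actin filament) averaged 6.64 ± 3.33 CPM in Erbb2-deficient tumors and 70.1 ± 16.6 CPM in adjacent tissue. It averaged 3.83 ± 3.42 CPM in control tumors and 92.7 ± 27.1 CPM in adjacent tissue. It kept up to 13 counts in a tumor and was at 0 in control tumor 1. On the log2 scale Tpm2 differed by -3.38 ± 0.50 SE in Erbb2-deficient mice and -4.61 ± 0.55 SE in controls (edgeR adjusted p = 8.31e-05 and 1.31e-05).

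Des (desmin, the intermediate filament of muscle) had 3.02, 0, 0.698, 0.744 and 0.7205 CPM in Erbb2-deficient tumors, against 109, 69.0, 50, 47.7 and 50.9 CPM in adjacent tissue. In controls it had 1.40, 7.26, 0.920, 0 and 0 CPM in tumors and 132, 77.3, 73.4, 38.5 and 56.9 CPM in adjacent tissue. Erbb2-deficient tumor 1 and control tumor 2 held most of the tumor counts of their groups. The log2 fold change of Des was -5.86 ± 0.69 SE in Erbb2-deficient mice and -5.25 ± 0.65 SE in controls (edgeR adjusted p = 1.18e-05 and 2.31e-05). It was -6.65 in Erbb2-deficient mice without tumor 1, and -6.72 in controls without tumor 2 (-6.9 without control tumors 2 and 3).

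Csrp1 (a LIM-domain protein of the actin cytoskeleton that is also made outside muscle) had the smallest difference of the 10. It had 9.82, 14.2, 6.98, 6.70 and 4.32 CPM in Erbb2-deficient tumors, against 20.4, 14.96, 20.6, 25.7 and 14.55 CPM in adjacent tissue. In controls it had 5.58, 3.63, 3.68, 5.71 and 5.93 CPM in tumors and 46.4, 22.7, 13.8, 18.8 and 17.8 CPM in adjacent tissue. Erbb2-deficient tumor 2 nearly reached the lowest adjacent library. The log2 fold change of Csrp1 was -1.19 ± 0.35 SE in Erbb2-deficient mice (edgeR adjusted p = 0.0165) and -2.25 ± 0.38 SE in controls (adjusted p = 0.000413). The Csrp1 call in Erbb2-deficient mice was lost with no filter on low counts (adjusted p = 0.0652, range over the alternatives 0.00777 to 0.0652).

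Chrm2 (the M2 muscarinic acetylcholine receptor, the more abundant of the muscarinic receptors of gut muscle) was at 0 in 9 of 10 tumors. Its only tumor read was in Erbb2-deficient tumor 5, against 22.7, 20.8, 11.1, 27.2 and 26.5 CPM in the adjacent tissue of these mice. In controls every tumor had 0 counts, and adjacent tissue had 52.3, 37.0, 11.5, 49.3 and 22.2 CPM. In Erbb2-deficient mice 1 count in tumors stood against 154 in adjacent tissue, a 150-fold lower level in tumors (95% counting interval 26.5 to 5960). In controls the level was at least 65.1-fold lower in tumors, where the floor is 3 counts summed over the 5 tumors. Both differences passed (edgeR adjusted p = 1.36e-05 and 5.25e-06). Intervals and floors cover counting error only. The row of Chrm3, the muscarinic receptor that triggers contraction, held too few counts to be tested.

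**Figure D2:**
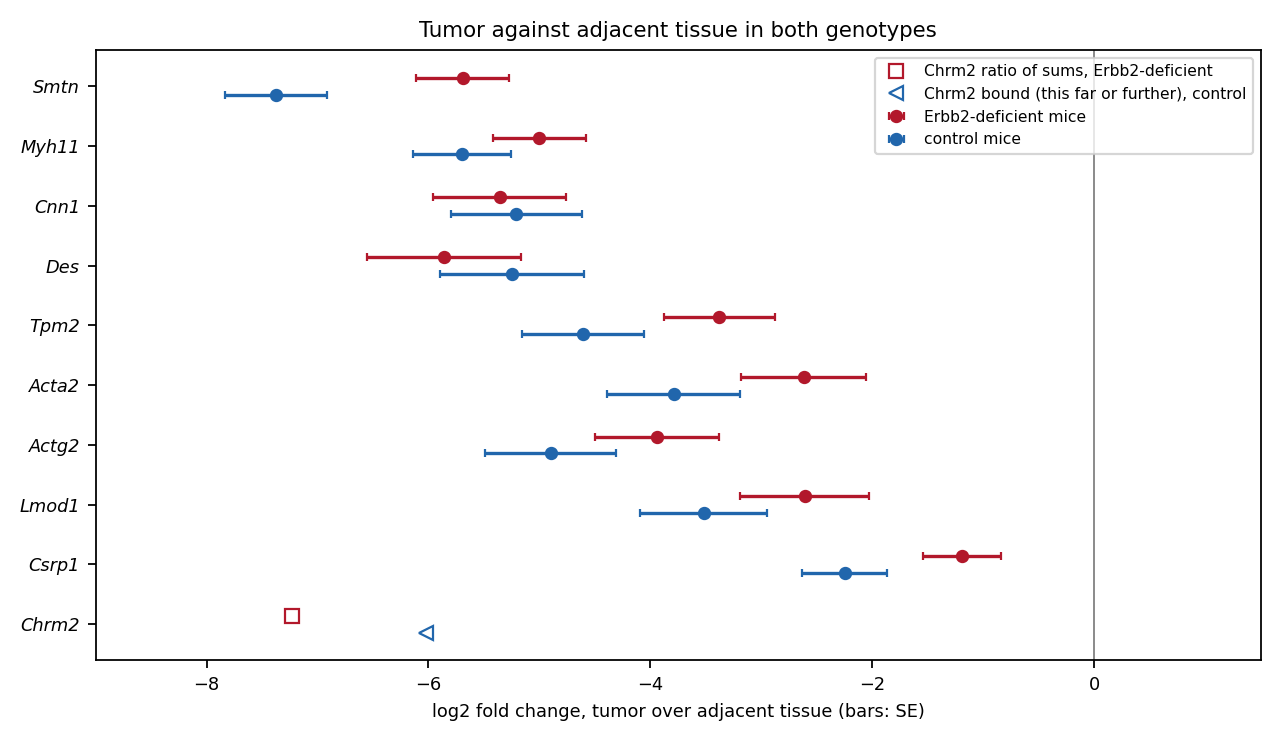
Log2 fold change (horizontal axis, tumor over adjacent tissue) of the 10 rows in Erbb2-deficient and in control mice, with SE bars. Values run from -1.19 for Csrp1 in Erbb2-deficient mice to -7.37 for Smtn in controls; for Chrm2 the square is the ratio of summed levels and the triangle a bound.

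The rows that lie opposite a member were read beside it. For Gm15179, opposite Des, the log2 fold change was -4.38 ± 0.74 SE in Erbb2-deficient mice and -5.34 ± 0.80 SE in controls (edgeR adjusted p = 0.000270 and 0.000157). Gm15179 held 2 counts in Erbb2-deficient tumors and 56 in adjacent tissue, and 1 count in control tumors and 63 in adjacent tissue. Without control tumor 2 no control tumor read of Gm15179 was left, so the fitted -6.82 depends on the prior count and is no fold. The row opposite Chrm2, 9330158H04Rik, was not tested. It held 1 count in Erbb2-deficient tumors and 44 in adjacent tissue, and 1 count in control tumors and 33 in adjacent tissue. Erbb2-deficient adjacent 4 alone held 29 of the 44 counts, and 15 remain without it. Both of these rows were thus lower in tumors than in adjacent tissue, as Des and Chrm2 were. They did not follow the member library by library within adjacent tissue. Among control adjacent libraries, 9330158H04Rik was highest in number 3 (8.415 CPM), where Chrm2 was lowest (11.5 CPM).

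Gm11946, which shares 714 bases of exon with Smtn (16.3% of the Smtn exon bases), did not pass. It averaged 191 ± 51.7 CPM in Erbb2-deficient tumors and 131 ± 51.0 CPM in adjacent tissue, and 151 ± 74.4 CPM in control tumors and 155 ± 65.8 CPM in adjacent tissue (SD, n = 5 each). Its log2 fold change was 0.55 ± 0.37 SE in Erbb2-deficient mice (edgeR adjusted p = 0.289). In controls it was -0.04 ± 0.37 SE (adjusted p = 0.953), with no firm sign (0.19 without control tumor 2). Were the strand of the counts reversed, Smtn RNA from the 714 shared bases would fall in the Gm11946 row. The Smtn row fell and the Gm11946 row was not called, so the fall is not shown for Smtn RNA. Which RNA either row holds was not tested. Rows within 1000 bases on the opposite strand were chosen after their values were seen. Selenom, a selenoprotein gene near Smtn, averaged 1.48 ± 1.07 CPM in Erbb2-deficient tumors and 16.5 ± 10.3 CPM in adjacent tissue, and 0.917 ± 1.59 CPM in control tumors and 21.5 ± 7.07 CPM in adjacent tissue. Its log2 fold change was -3.42 ± 0.61 SE in Erbb2-deficient mice and -4.48 ± 0.68 SE in controls (edgeR adjusted p = 0.000451 and 0.000177), and -6.11 in controls without control tumor 3. Without control tumors 2 and 3 no control tumor read of Selenom was left. The fitted -7.79 then depends on the prior count and is no fold. Car9, a carbonic anhydrase gene near Tpm2, averaged 69.2 ± 36.7 CPM in Erbb2-deficient tumors and 262 ± 52.2 CPM in adjacent tissue, and 95.7 ± 75.8 CPM in control tumors and 323 ± 75.7 CPM in adjacent tissue. Its log2 fold changes were -1.92 ± 0.40 SE in Erbb2-deficient mice and -1.76 ± 0.40 SE in controls (edgeR adjusted p = 0.00149 and 0.00387), and -2.35 in controls without control tumor 3. Stambpl1, near Acta2, had too few counts to be tested.

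Set per kilobase of exon (GENCODE M21 lengths), Smtn stood above the other 9 rows in adjacent tissue. If a row holds antisense reads, the exon length of the named gene does not describe it. The order is therefore one of rows and does not rank the RNA of the genes. Smtn had 100.0 CPM per kilobase in the Erbb2-deficient libraries and 202 CPM per kilobase in the controls. Tpm2 followed with 24.1 and 31.9 CPM per kilobase, then Des with 17.4 and 20.2 CPM per kilobase. In Erbb2-deficient adjacent tissue Myh11, Cnn1, Actg2 and Acta2 lay between 12.2 and 14.7 CPM per kilobase, and in control adjacent tissue between 17.6 and 18.6 CPM per kilobase, apart by less than the spread between libraries. Csrp1, Chrm2 and Lmod1 were lower, at 9.84, 3.58 and 2.19 CPM per kilobase in Erbb2-deficient and 12.2, 5.69 and 4.20 CPM per kilobase in control adjacent tissue. In tumors the order differed. Csrp1 was highest, at 4.29 CPM per kilobase in Erbb2-deficient and 2.51 in control tumors, and Tpm2, Acta2 and Smtn had 1.18 to 2.28 CPM per kilobase. The ratio of the Smtn row to the Myh11 row was also uneven among adjacent libraries, from 3.29 to 5.72 in Erbb2-deficient mice and from 4.39 to 8.29 in controls.

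Some adjacent libraries were high or low in most of the rows, and others were mixed. Control adjacent 1 was the highest of 10 adjacent libraries in 8 of the 10 rows and among the top 3 in all 10. Erbb2-deficient adjacent 2 and 5 were each among the lowest 3 in 7 rows, and control adjacent 4 in 6 rows, although control adjacent 4 was second highest for Chrm2. Control adjacent 3 was among the top 3 in 4 rows and the lowest 3 in 2, with the highest Smtn and the lowest Csrp1. Erbb2-deficient adjacent 1 was among the top 3 in 2 rows and the lowest 3 in 2, and Erbb2-deficient adjacent 3 among the top 3 in 2 rows and the lowest 3 in 3. Summed over the 10 rows, adjacent tissue held 650 to 948 CPM in Erbb2-deficient mice and 746 to 1918 CPM in controls, and without Smtn 283 to 460 CPM and 326 to 747 CPM. Tumors held 16.8 to 52.2 CPM in Erbb2-deficient mice and 16.1 to 38.6 CPM in controls. The highest tumor sum was that of Erbb2-deficient tumor 2, which was the highest of 10 tumors in 3 rows. The highest control tumor was control tumor 3.

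**Figure D3:**
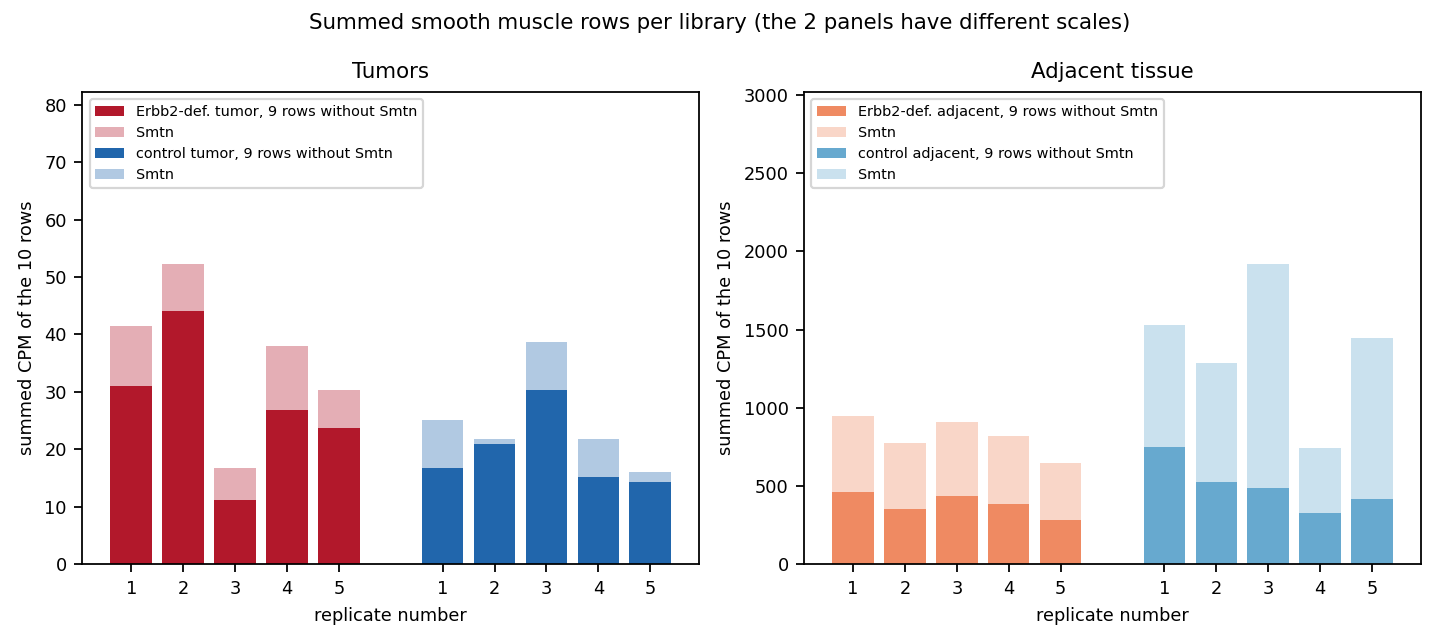
Summed CPM of the 10 rows (vertical axis) in each library, split into Smtn (pale) and the other 9 rows (dark), for tumors on the left and adjacent tissue on the right, with different scales. No tumor exceeds 52.2 CPM and no adjacent library is below 650 CPM.

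The other genes of the contractile apparatus and its anchorage to the membrane were described from a list of 36 genes, of which 20 were tested. In Erbb2-deficient tumors 10 of the 20 fell and 1 rose, and in control tumors 10 fell and 1 rose (edgeR adjusted p under 0.05). Over all rows 14.5% fell and 13.0% rose in Erbb2-deficient tumors, and 10.9% fell and 10.7% rose in control tumors. The median log2 fold change of the 20 was -0.90 in Erbb2-deficient mice and -1.10 in controls, where that of all rows was -0.06 and 0.07. As for the members, a row that passed the count filter through adjacent libraries alone had to be higher there. Myl9, Jph2, Tns1 and Synpo2 averaged under the filter level of about 7.95 CPM in tumors of both genotypes. The counts of falls are therefore a description. The count of 10 was 6 in Erbb2-deficient mice when libraries were scaled by their totals alone, and 4 in controls when only the control groups were fitted. Without Erbb2-deficient tumor 3 the count that rose in Erbb2-deficient mice was 2. Of the 20 rows, 13 had no exon of another gene opposite, and these held 7 of the falls in Erbb2-deficient mice and 8 of those in controls.

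The 4 rows of smallest p in controls were Myl9, Jph2, Tns1 and Synpo2. Myl9, the regulatory light chain of smooth muscle myosin, averaged 5.47 CPM in Erbb2-deficient tumors and 42.6 CPM in adjacent tissue, and 2.49 CPM in control tumors and 69.2 CPM in adjacent tissue. Synpo2, an actin-binding protein of muscle, averaged 3.67 CPM in Erbb2-deficient tumors and 67.6 CPM in adjacent tissue, and 3.63 CPM in control tumors and 65.5 CPM in adjacent tissue. They fell in both genotypes, with log2 fold changes of -2.94 ± 0.45 SE and -4.17 ± 0.74 SE in Erbb2-deficient mice and -4.72 ± 0.51 SE and -4.18 ± 0.76 SE in controls. Jph2, a junctional membrane protein of muscle, had log2 fold changes of -5.15 ± 0.80 SE in Erbb2-deficient mice and -4.93 ± 0.73 SE in controls. Its mean was 0.14 CPM in Erbb2-deficient tumors (at most 0.698) and 0.279 CPM in control tumors (at most 1.4). These tumor levels are near 0, so the size of the Jph2 folds is rough. Tns1, a focal adhesion protein, had log2 fold changes of -2.62 and -3.27 (edgeR adjusted p at most 0.00145 for these 4 rows in both genotypes). In controls Synpo2 was at -6.1 without control tumor 3, and in Erbb2-deficient mice it was at -4.85 without tumor 5. The fitted value of Jph2 was -7.07 in controls without control tumor 1 and -6.44 in Erbb2-deficient mice without tumor 3. No tumor read of Jph2 was then left in the group, so these values depend on the prior count and are no fold. The row that rose was Vim, the intermediate filament of mesenchymal cells, at 29.8 CPM in Erbb2-deficient tumors and 4.07 CPM in adjacent tissue, and 22.1 CPM in control tumors and 5.05 CPM in adjacent tissue (log2 fold change 2.85 and 2.13, edgeR adjusted p = 0.000375 and 0.00491).

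**Figure D4:**
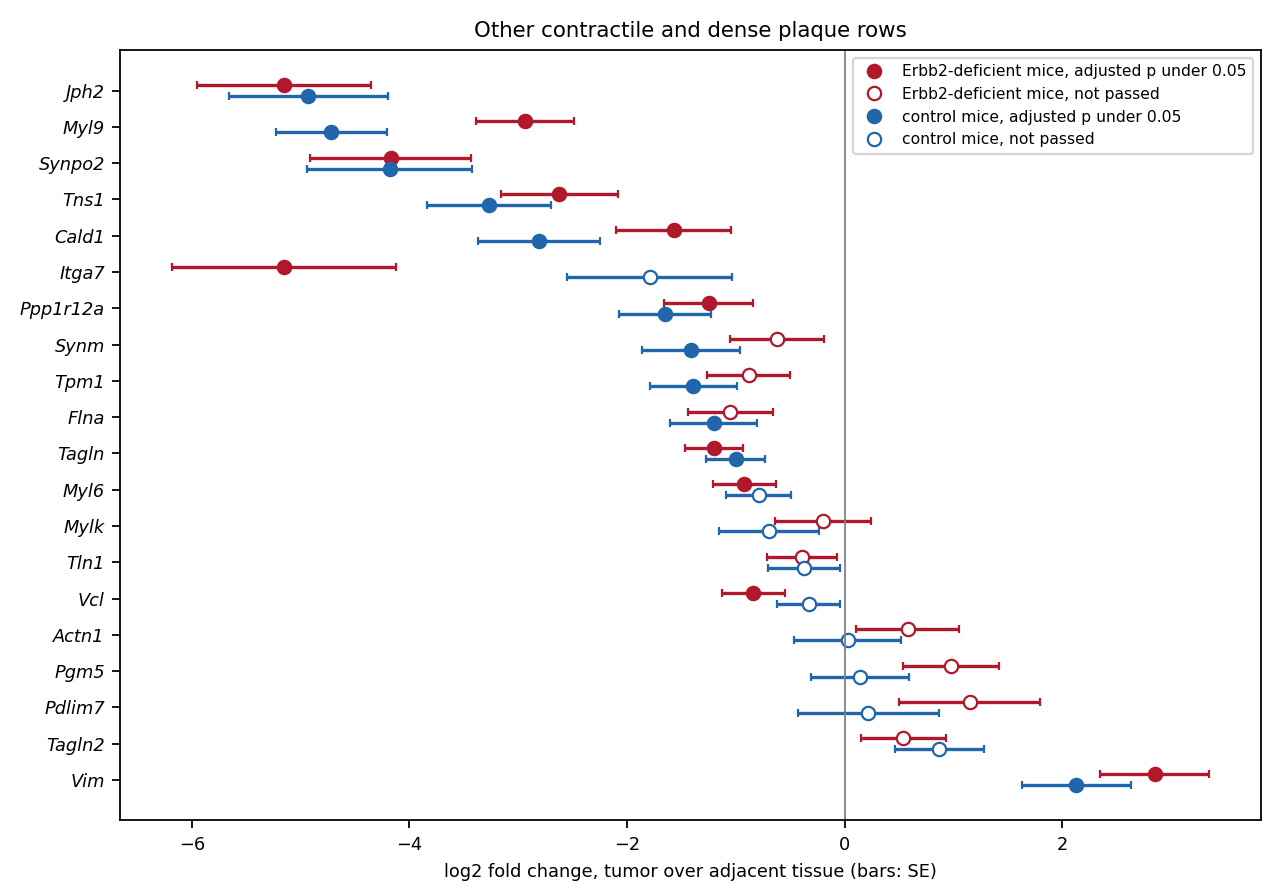
Log2 fold change (horizontal axis, tumor over adjacent tissue, SE bars) of the 20 tested rows of the contractile and anchorage list, with filled points for rows that passed. In each genotype 10 rows fell and Vim rose.

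Of the genes of excitation and relaxation of smooth muscle 8 were tested. In Erbb2-deficient tumors 1 fell and 1 rose (over all rows, 14.5% and 13.0%), and in control tumors 2 fell and 1 rose (over all rows, 10.9% and 10.7%), so that shares of so few rows are near those over all rows. Itpr1, the inositol trisphosphate receptor that releases stored calcium, averaged 31.6 CPM in Erbb2-deficient tumors and 73.2 CPM in adjacent tissue, and 29.2 CPM in control tumors and 70.8 CPM in adjacent tissue, with edgeR adjusted p = 0.0492 and 0.0484. The Itpr1 row has exons of other genes opposite, and its call was lost in many of the alternatives (adjusted p up to 0.173). The calcium channel gene Cacna1c was called in controls (edgeR adjusted p = 0.0278, up to 0.09 over the alternatives), and Cnn3, a calponin found outside muscle, was the row that rose in both genotypes. Of the transcription factors of smooth muscle, Srf and its cofactor Mrtfa were tested, and neither passed in either genotype. Srf averaged 18.2 CPM in Erbb2-deficient tumors and 19.8 CPM in adjacent tissue, and 15.4 CPM in control tumors and 23.3 CPM in adjacent tissue.

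Other cell types of the gut wall were read from marker lists, whose rows could also pass the count filter through a single tissue. Interstitial cells of Cajal, the pacemakers within the muscle layers, had 2 tested rows, of which Thbs4 and Ano1 fell in Erbb2-deficient tumors and Thbs4 in control tumors. Over all rows 14.5% fell in Erbb2-deficient tumors and 10.9% in control tumors. The Ano1 call had edgeR adjusted p = 0.029, up to 0.0942 over the alternatives, and the other 3 rows of this list averaged under 3 counts. The 5 rows of the list summed to 6.98 to 18.7 CPM in Erbb2-deficient tumors and 23.8 to 51.4 CPM in adjacent tissue, and 2.79 to 6.66 CPM in control tumors and 12.2 to 19.3 CPM in adjacent tissue. The 12 enteric neuron rows all averaged under 3 counts and were not tested, with sums of 0.698 to 3.60 CPM in Erbb2-deficient tumors and 4.07 to 12.9 CPM in adjacent tissue, and 0 to 3.63 CPM in control tumors and 2.69 to 12.5 CPM in adjacent tissue. Of the enteric glia list Gfap was tested and did not pass. Fibroblast rows rose in 4 of 8 tested in Erbb2-deficient tumors and in 0 of 8 in control tumors, where 13.0% and 10.7% of all rows rose (median log2 fold change of the 8 rows 1.64 and 0.34), a difference between genotypes that passed for none of them (edgeR interaction, 0 of 8). The pericyte row Notch3 rose in tumors of both genotypes (edgeR adjusted p = 0.00282 in Erbb2-deficient mice and 0.0383 in controls, up to 0.139 over the alternatives in controls). The part of these cells in the levels of the members was not tested.

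No endothelial or skeletal muscle row was tested, and the skeletal myosins Myh2 and Myh4 were at 0 in every library. Skeletal muscle rows summed to 5.59 to 12.7 CPM in Erbb2-deficient tumors and 13.6 to 24.6 CPM in adjacent tissue, and 13.3 to 167 CPM in control tumors and 24.7 to 30.5 CPM in adjacent tissue. Endothelial rows summed to 6.04 to 15.6 CPM in Erbb2-deficient tumors and 0.662 to 6.35 CPM in adjacent tissue, and 4.24 to 20 CPM in control tumors and 1.78 to 8.88 CPM in adjacent tissue. Of the mesothelium list Krt19, which epithelium also makes, was tested and did not pass, and Upk3b and Wt1 were at 0. Of 9 epithelial rows, 1 fell in Erbb2-deficient tumors (Lgals4, adjusted p = 0.0356 by edgeR, up to 0.137 over the alternatives) and 0 in control tumors. Over all rows 14.5% and 10.9% fell, so these counts are near the shares over all rows. Epithelial rows summed to 335 to 589 CPM in Erbb2-deficient tumors and 312 to 652 CPM in adjacent tissue, and 18.2 to 468 CPM in control tumors and 304 to 433 CPM in adjacent tissue. The adjacent tissue, labelled as epithelium, thus had counts in epithelial rows and in all 10 smooth muscle rows. The lowest epithelial sum was that of control tumor 2, which also held the highest Des level of any tumor. Of 2 leukocyte rows, Ms4a1 passed in Erbb2-deficient mice (adjusted p = 0.0432 by edgeR, up to 0.126 over the alternatives), lower in tumors, and neither passed in controls. Here too 14.5% and 10.9% of all rows fell, and 2 rows are too few to set against these shares.

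The genotypes were compared within each tissue to see whether loss of Erbb2 in the epithelium went with other levels of these rows. In adjacent tissue all 10 rows had a lower fitted level in Erbb2-deficient mice than in controls, and none passed. The log2 fold changes lay between -0.21 and -1.01, with a median of -0.47, against 0.01 over all rows tested, of which 48.9% were below 0. The share of rows called was 0.0% in either direction by edgeR. At an unadjusted p under 0.05 edgeR had 418 rows, 2 of them members, and DESeq2 called 5 rows and no member. The 10 rows come from the same libraries, so 10 equal signs are not 10 separate observations, and without control adjacent 1 the sign of Cnn1, Des and Csrp1 turned (0.01, 0.07 and 0.05). Lmod1 passed the count filter through its control adjacent libraries, which favoured the sign it had.

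Smtn had the largest of these differences, with 438 ± 48.2 CPM in the Erbb2-deficient libraries and 884 ± 374 CPM in the controls (SD, n = 5 each). Its log2 fold change was -1.01 ± 0.33 SE (edgeR adjusted p = 0.618, range over the alternatives 0.161 to 0.961), and control adjacent 4, at 419 CPM, lay within the Erbb2-deficient range. Lmod1 followed, at -0.95 ± 0.45 SE (adjusted p = 0.847), with 3.31 to 15.1 CPM in the Erbb2-deficient libraries and 12.5 to 21.0 CPM in the controls. Lmod1 reached the filter level in 5 of 5 control adjacent libraries and in 2 of 5 Erbb2-deficient ones. A row kept through the control libraries had to be high there, which favoured a lower level in the other group. The place of Lmod1 is therefore a description. Myh11 differed by -0.33 ± 0.33 SE (adjusted p = 0.938), and Des by -0.21 ± 0.48 SE (adjusted p = 0.993), both no larger than the spread between libraries. The row of Tsix, which lies opposite the female-specific Xist, had 1487 counts in Erbb2-deficient adjacent 5 and at most 2 in the other 4, against 99 to 2038 counts in control adjacent 1, 2 and 3 and at most 1 in the other two. These counts were uneven between the genotypes, and the part of sex in the levels of the smooth muscle rows was not tested.

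In tumors none of the rows passed between genotypes either. Chrm2, at or under the floor in both groups, gives no fold. Of the other 9 rows, 6 had a higher fitted level in Erbb2-deficient tumors, with log2 fold changes from -0.82 to 0.82, a median of 0.42 and adjusted p of at least 0.477 (edgeR). Over all rows tested 50.9% were below 0, and the 9 rows come from the same libraries. The share called was 0.0% in either direction, with 817 rows and no member at an unadjusted p under 0.05, and DESeq2 called 26 rows and no member. Des had -0.82 ± 0.87 SE and Cnn1 -0.41 ± 0.81 SE, and both signs turned without control tumor 2, to 0.64 and 0.06. Tpm2 had 0.82 ± 0.57 SE (adjusted p = 0.629) and Csrp1 0.76 ± 0.39 SE (adjusted p = 0.477). These values rest on 19 to 70 counts per tumor library over all 10 rows together.

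The interaction asked whether the difference between tumor and adjacent tissue itself depended on genotype. It passed for no row in edgeR (0.0% called in either direction, 290 rows and 1 member at an unadjusted p under 0.05) and for no row in DESeq2. Leaving out Chrm2, 7 of 9 rows had a smaller fall in Erbb2-deficient mice than in controls. Over all rows tested 55.7% had an interaction below 0. The 9 rows come from the same libraries, so equal signs are not separate observations. Their median interaction was 0.96 on the log2 scale, against -0.06 over all rows tested. The largest was that of Smtn, at 1.68 ± 0.54 SE (edgeR adjusted p = 1.0). Csrp1 had 1.06 ± 0.52 SE, and Des and Cnn1 had -0.61 ± 0.96 SE and -0.15 ± 0.78 SE (adjusted p = 1.0), whose signs turned without control tumor 2 (0.87 and 0.34).

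**Figure D5:**
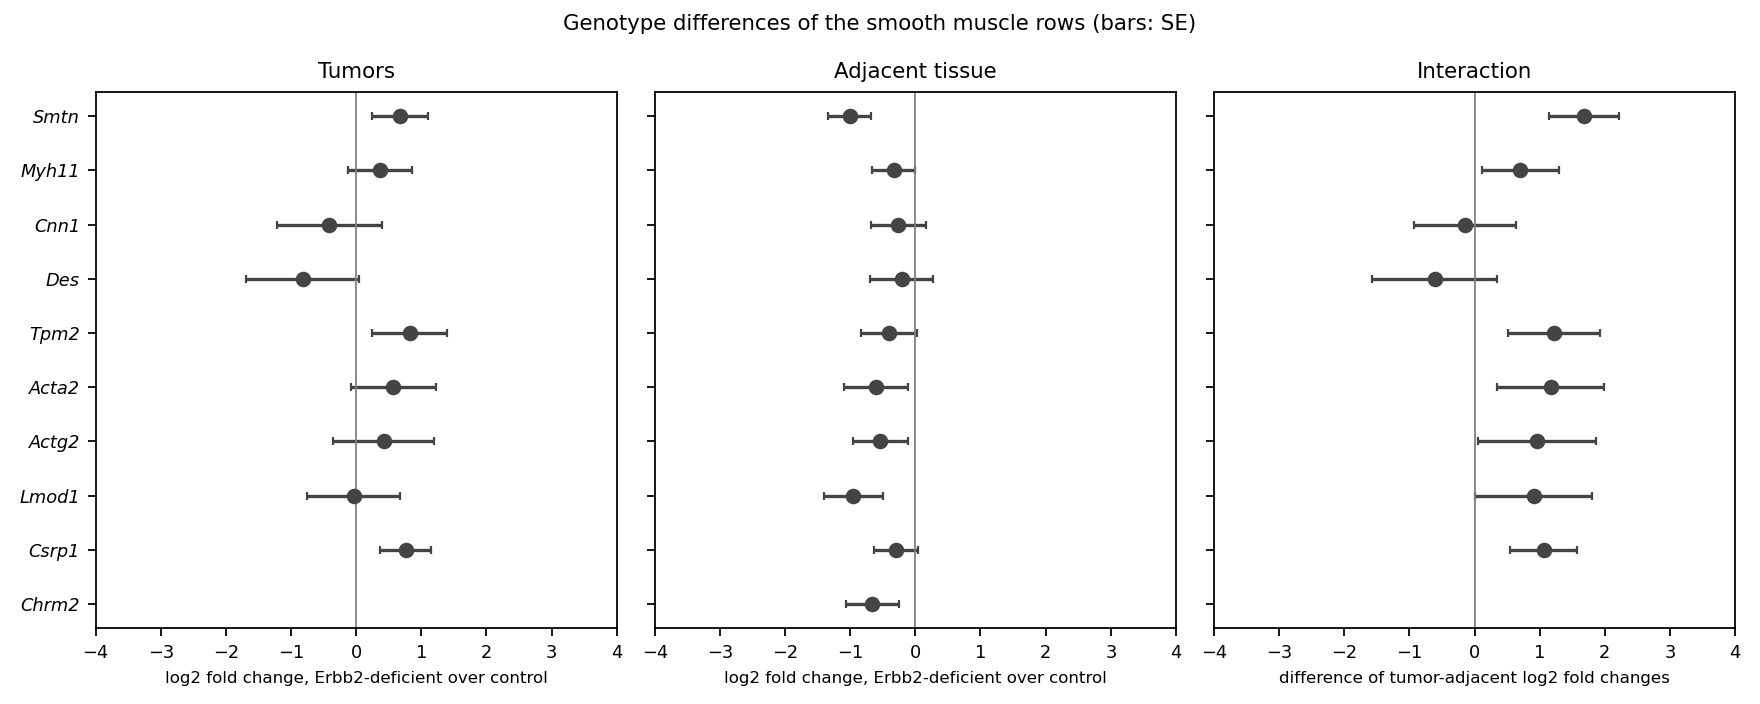
Log2 fold change (horizontal axis, Erbb2-deficient over control, SE bars) of the rows in tumors and in adjacent tissue, and the interaction on the right. In adjacent tissue all 10 points lie below 0, from -0.21 to -1.01; Chrm2 is left out of the panels that need its tumor level, and no value passed the test.

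Among 7049 other rows with a mean of at least 5 CPM, likeness to the members was measured as the root mean square difference of centred log2 CPM from the mean profile of the 10 rows over 20 libraries. The 6 nearest were Myl9 (0.48), Gm15816 (0.48, opposite Ank1), Gm32335 (0.52), Hoxb7 (0.56), Gpr17 (0.57, opposite Lims2) and Gm51959 (0.58), where the median row was at 2.0. Gm32335 was at 0 in every tumor and averaged 18.7 CPM in adjacent tissue of Erbb2-deficient mice and 22.8 CPM in that of controls. Gpr17 averaged 7.33 CPM in Erbb2-deficient tumors and 104 CPM in adjacent tissue, and 15.2 CPM in control tumors and 220 CPM in adjacent tissue. Within the list, Actg2 and Cnn1 were nearest to the mean of the other 9 rows (0.47 and 0.48) and Smtn and Csrp1 farthest from it (1.54 and 1.34).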

How the data were processed

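Each deposited file gives the authors' raw read count for every gene symbol in a single library. The submitters' processing notes name Trimmomatic, HISAT2 2.2.1, HTSeq 2.0.2, DESeq2 and build mm39; the sources used here give neither settings nor the strand option. Per the labels' protocols, RNA was extracted with a Maxwell kit and libraries were made with TruSeq Stranded mRNA. The 5 summary rows per file were left out. Between 78.6% and 85.1% of the reads in a file fell on no feature.

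Rows were filtered with filterByExpr (minimum count 10, about 7.95 CPM; 7119 rows kept) and scaled with TMM in edgeR 4.0.16 (R 4.3.3). The 4 groups entered one model over all 20 libraries with no covariate, and quasi-likelihood F tests were adjusted over all rows by Benjamini-Hochberg, with a threshold of 0.05. The SE is the log2 fold change divided by the square root of F. Log2 CPM has a prior count of 2. Alternatives included DESeq2 1.42.0. The fit was tested on simulated counts. The members, the gene lists and the rule for named rows (all members, rows with an exon opposite a member, up to 4 rows of smallest p in controls from a list, the 6 rows most alike) were chosen with earlier results of these data known. Groups and replicate numbers come from the titles, which call the replicates biological; equal numbers are not said to mark 1 mouse.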

Additional observations from a re-analysis of the deposited data

Results flagged for a closer look

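In 39 groups of 5 libraries with any counts, 4 groups, of 3 members, had a library far from the other 4. A chance rate of about 1 in 20 holds for normally distributed values. It does not hold for the few tumor counts of Des and Chrm2, so the number of groups was not compared with chance. Des was at 3.02 CPM in Erbb2-deficient tumor 1 and at 7.26 CPM in control tumor 2, which rest on 4 and 8 counts. Csrp1 was at 46.4 CPM in control adjacent 1, the library that was highest in 8 of the 10 rows. Chrm2 was at 0.72 CPM in Erbb2-deficient tumor 5, a single read and the only read of that group.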

How the results depend on the processing

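Over 28 alternatives the 10 rows were called lower in tumors of both genotypes in all but 2 cases in Erbb2-deficient mice, Csrp1 with no filter and Lmod1 where it was not tested in the fit of the 2 groups alone. Leaving out 1 library kept 10 members called lower in both genotypes. The count of all rows called in Erbb2-deficient mice was 2939 without control tumors 2 and 3, and 1573 to 2719 leaving out 1 library. In controls it was 593 with only the groups compared, 2544 without control tumors 2 and 3, and 1188 to 2127 leaving out 1 library. For the genotypes, the fit of the 2 groups alone gave no value for members in tumors, where none passed the filter, nor for the interaction. There DESeq2 called 26 rows in tumors and 5 in adjacent tissue, where edgeR with no filter or without control tumors 2 and 3 called 1 and leaving out 1 library gave 0 to 2.

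Some log2 fold changes that passed no test changed sign when 1 library was left out. In adjacent tissue between genotypes, Cnn1 ranged from -0.50 to 0.01, Csrp1 from -0.47 to 0.05 and Des from -0.50 to 0.07, each highest without control adjacent 1. In tumors between genotypes, Acta2 ranged from -0.05 (without Erbb2-deficient tumor 2) to 1.08, Cnn1 from -0.73 to 0.08, Des from -1.65 to 0.64 and Lmod1 from -0.28 to 0.28. The fitted value of Chrm2 there ranged from 0.00 to 1.53, which depends on the prior count and is no fold. In the interaction Cnn1 ranged from -0.44 to 0.35 and Des from -1.41 to 0.87, and in controls Gm11946 ranged from -0.25 to 0.23. Without control tumors 2 and 3 the tumor values were 1.45 for Cnn1, 0.86 for Des and 0.01 for Lmod1, the interaction was 1.73 for Cnn1 and 1.09 for Des, and Gm11946 in controls was 0.04. With library totals alone Lmod1 in tumors was 0.14 and Gm11946 in controls 0.05. Scaling by library totals alone moved the median of all rows from -0.06 to 0.13 in Erbb2-deficient mice and from 0.07 to 0.17 in controls, and the share of calls that were higher from 47.4% to 62.0% and from 49.6% to 59.7%. The causes were not tested.

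With the replicate block 1989 rows were called in Erbb2-deficient mice and 1428 in controls, and 10 members fell in both. Whether equal numbers mark 1 mouse is not stated in the labels. Between tumor and adjacent libraries of equal number the correlation of deviations was -0.12 to 0.37, over 0.1 in 6 of 10 pairs, and 4 of 10 tumors matched their own number best. Tsix was high in both libraries of 4 pairs (99 counts or more) and low in both of the other 6 (at most 2), a hint from the data that tumor and adjacent libraries of equal number may come from the same mouse. Depth limits the tumor values: no member had more than 19 counts in a tumor.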
